A study of Pinus tabuliformis with 21 samples.

Results

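The change in foliage transcripts between 1 d and 3 d of UV-C was described in the Chinese pine Pinus tabuliformis, a conifer. It rests on 6 of the 21 libraries of the series, chosen by their labels: 3 of UV-C at 3 d and 3 of UV-C at 1 d. Of 84525 gene models in the count table, 18265 passed the filter on low counts and were tested. UV-C is absorbed high in the atmosphere, so plants meet it under lamps. It is absorbed directly by DNA, where it links neighbouring pyrimidines, and it raises reactive oxygen in leaf tissue. Plants are known to answer such light with DNA repair enzymes, antioxidant enzymes and phenolic sunscreens.

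Seedlings were 2.5 years old and grew at 25 °C with 12 h of light. UV-C lamps emitted between 230 and 270 nm, with a peak at 254 nm, and gave 28 µW/cm2 for 3 d or for 1 d. UV-B lamps gave 280 µW/cm2 between 280 and 320 nm, with the peak at 306 nm. The libraries that serve as background are UV-C at 7 d, UV-B at 1, 3 and 7 d, and an unirradiated control taken at 0 h, with 3 libraries each. No genotype or strain is named beyond the species. No unirradiated library stands at 1 d or 3 d, so longer irradiation and the time that passed cannot be told apart. No harvest hour is given in the sources used here. Whether each replicate was a separate seedling is not stated by the labels. A p-value here therefore sets a difference only against the spread between libraries, which may be technical. In the main fit that spread was estimated over all 21 libraries. Libraries were made from whole foliage, so fewer cells of a type and less RNA per cell cannot be told apart. Gene names do not stand beside the identifiers in the count table, so pathways could not be followed and the labelled tissue could not be checked against marker genes. Genes are grouped below by how they behave in other libraries.

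The UV-C 3 d libraries held 6177212, 7444867 and 7569757 counts (replicates 1, 2 and 3), against 6981912, 7994941 and 7600961 in the UV-C 1 d libraries. UV-C 3 d replicate 3 differed from the other libraries of its group. Over log2 CPM of the tested genes, where CPM are counts set to the same library size, its Pearson correlation was 0.926 with replicate 1 and 0.878 with replicate 2, whereas those 2 correlated at 0.960. Its mean correlation was 0.962 with the UV-C 7 d libraries, 0.946 with the UV-C 1 d libraries and 0.945 with the control. These are correlations across genes, which are not independent replicates. On the first principal component of all 21 libraries, which held 34.7% of the variance, the UV-C 3 d libraries lay at 40.3, 84.2 and -45.8. The UV-C 1 d libraries lay at -34.6, -17.8 and -62.9, so replicate 3 fell among them on this axis. On the second component, with 12.2% of the variance, replicate 3 lay at 12.2, outside the UV-C 1 d libraries (-57.7, -48.2 and -24.8) and nearer to its mates (5.53 and -3.85). The UV-C 7 d libraries lay between 25.2 and 43.6. The biological coefficient of variation, the spread between replicates beyond counting error, was 41.3% in UV-C at 3 d and 31.2% in UV-C at 1 d. Without replicate 3 it was 25.8% in UV-C at 3 d. The other groups also entered the estimate of spread in the main fit. They had 13.8% in the control, 19.7% in UV-C at 7 d, and 32.5%, 30.1% and 25.3% in UV-B at 1, 3 and 7 d. Which library is typical of UV-C at 3 d was not tested, and results are therefore given with and without replicate 3.

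**Figure D1:**
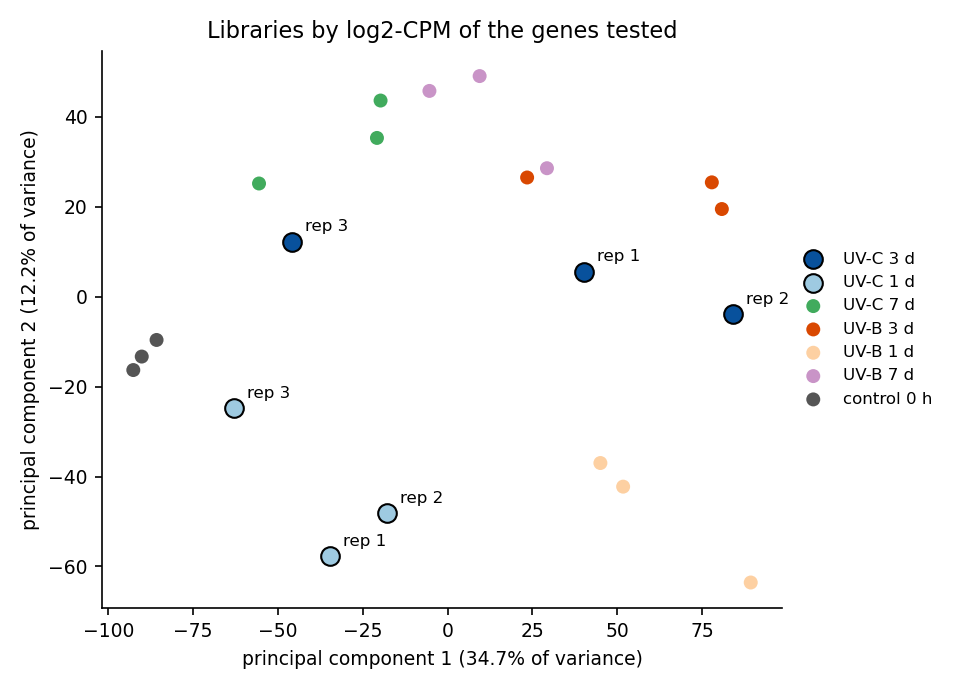
The first and second principal components of log2 CPM over the tested genes are plotted for all 21 libraries, 1 point each, coloured by group and numbered by replicate, with the share of variance on each axis. UV-C 3 d replicates 1 and 2 lie at 40.3 and 84.2 on the first axis, while replicate 3 lies at -45.8, within the range of the UV-C 1 d libraries.

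Between 1 d and 3 d of UV-C, more genes were called higher than lower. In a fit to all 21 libraries, the quasi-likelihood test of edgeR, with p adjusted after Benjamini and Hochberg, called 1139 of 18265 genes (6.24%) at an adjusted p under 0.05. At 3 d, 815 of them (4.46% of genes tested) were higher and 324 (1.77%) were lower. The higher genes had a median log2 fold change of 1.41 (quartiles 0.68 and 3.87). The lower genes had a median of -0.92 (quartiles -1.51 and -0.67). Over all genes tested, 49.2% had a positive fold change and the median was -0.01. The share of calls that were higher was 71.6%, against 53.4% with limma voom on all libraries. On simulated data this fit made more false calls than its threshold allows, so the number of calls is likely too high. Fold changes of 2 or more were found in 497 higher and 138 lower genes. Those of 8 or more were found in 251 higher and 11 lower genes.

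The number of calls differed widely between fits. Fitted to the 6 UV-C libraries alone, which also changes how genes are filtered and scaled and how spread is estimated, edgeR called 1 gene of 15977, with 2399 at an unadjusted p under 0.05. In the fit to 21 libraries, 4249 genes had an unadjusted p under 0.05. DESeq2 on the 6 libraries called 650 genes and limma voom called 88. The gene called by edgeR in the 6 libraries had 157, 202 and 199 CPM at 3 d, against 35.3, 37.6 and 36.4 CPM at 1 d. Its 3 d libraries were all high and close together, and the groups did not overlap. Its log2 fold change was 2.35 (SE 0.14, adjusted p = 0.0204).

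Single libraries also moved the number of calls in the fit to the rest of the series. Leaving out UV-C 3 d replicate 1 gave 525 calls, replicate 2 gave 101, and replicate 3 gave 2534. Leaving out UV-C 1 d replicate 1 gave 42 calls, replicate 2 gave 773, and replicate 3 gave 471. Higher genes outnumbered lower genes each time, by 24 to 18 at the fewest.

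**Figure D2:**
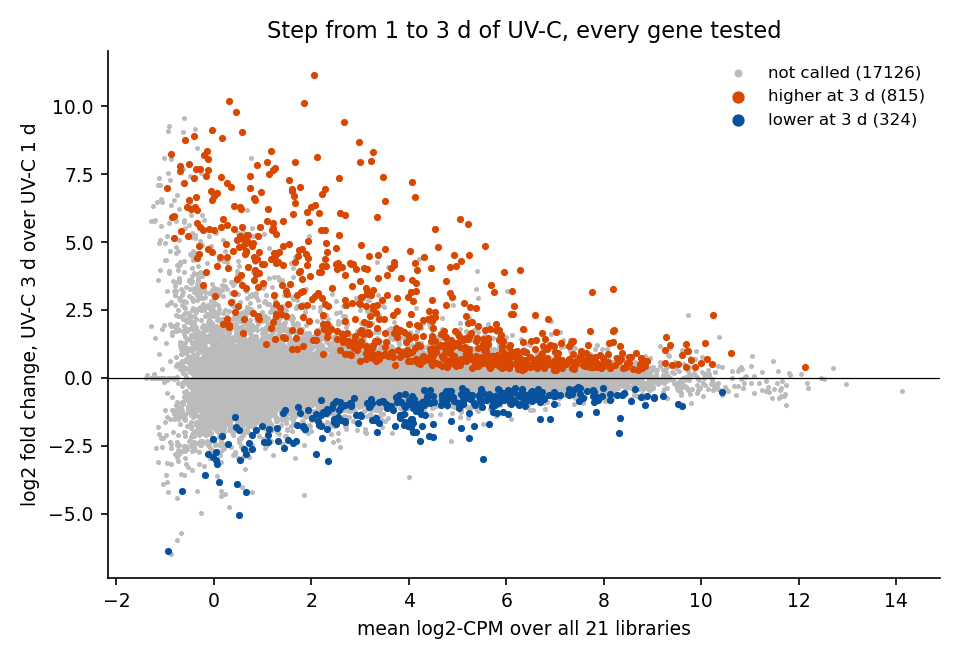
Each point is 1 of 18265 genes, with its mean log2 CPM over the libraries on the x axis and its fitted log2 fold change, UV-C 3 d over 1 d, on the y axis. The 815 higher genes reach farther from 0 than the 324 lower genes, and the fitted value of a gene with 0 counts in a group depends on the prior count.

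Higher genes had lower levels at 1 d than lower genes did, which choosing genes on these same libraries favours. The median level of the 815 higher genes was 42.9 CPM at 3 d and 11.5 CPM at 1 d, beside 12.4 CPM in the control. The median of the 324 lower genes was 20.4 CPM at 3 d and 40.9 CPM at 1 d, beside 32.7 CPM in the control. No count was seen at 1 d for 33 of the higher genes, and with these set to the lower limit given by 3 counts over the group the median log2 fold change was again 1.41. A few genes carried much of the gain: the 10 largest accounted for 24.8% of the summed CPM increase of higher genes. Among lower genes the 10 largest accounted for 27.6% of the summed decrease.

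The groups did not overlap in CPM for 649 of the 815 higher genes and for 306 of the 324 lower genes. These genes were chosen on the same libraries, so the counts are a description. Over all genes tested, the 3 d libraries all lay above the 1 d libraries for 11% and all below for 10.1%. Among higher genes, replicate 3 was the 3 d library nearest to the 1 d level for 601 genes, replicate 1 for 158 and replicate 2 for 56. Replicate 2 was the farthest for 607. Lower genes had the same order, with replicate 3 nearest for 205 of 324 and replicate 2 farthest for 234. Relative to the 1 d mean, the median log2 level of higher genes was 1.38, 1.68 and 0.59 in replicates 1, 2 and 3 at 3 d. That of lower genes was -0.85, -1.22 and -0.67. All 3 libraries thus lay on the called side in the median, and replicate 3 lay least far out.

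As a share of all counts, the 815 higher genes took 10.0%, 12.7% and 7.77% at 3 d, against 4.95%, 5.60% and 5.13% at 1 d. The 324 lower genes took 1.81%, 1.38% and 2.04% at 3 d, against 3.28%, 3.02% and 3.13% at 1 d. The libraries of 3 d and 1 d did not overlap in either share. Across the UV-C series the share of the higher genes was 4.93% ± 0.15 in the control, 5.22% ± 0.34 at 1 d, 10.2% ± 2.4 at 3 d and 6.45% ± 0.58 at 7 d (SD, n = 3 each). In the UV-B series, whose libraries entered the fit but not the contrast, the share was 7.23% ± 0.89 after 1 d, 9.41% ± 1.8 after 3 d and 6.58% ± 0.51 after 7 d (SD, n = 3 each). Both series were highest at 3 d, and UV-B at 1 d already lay above UV-C at 1 d. These shares were not tested, since the genes were chosen on these libraries.

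**Figure D3:**
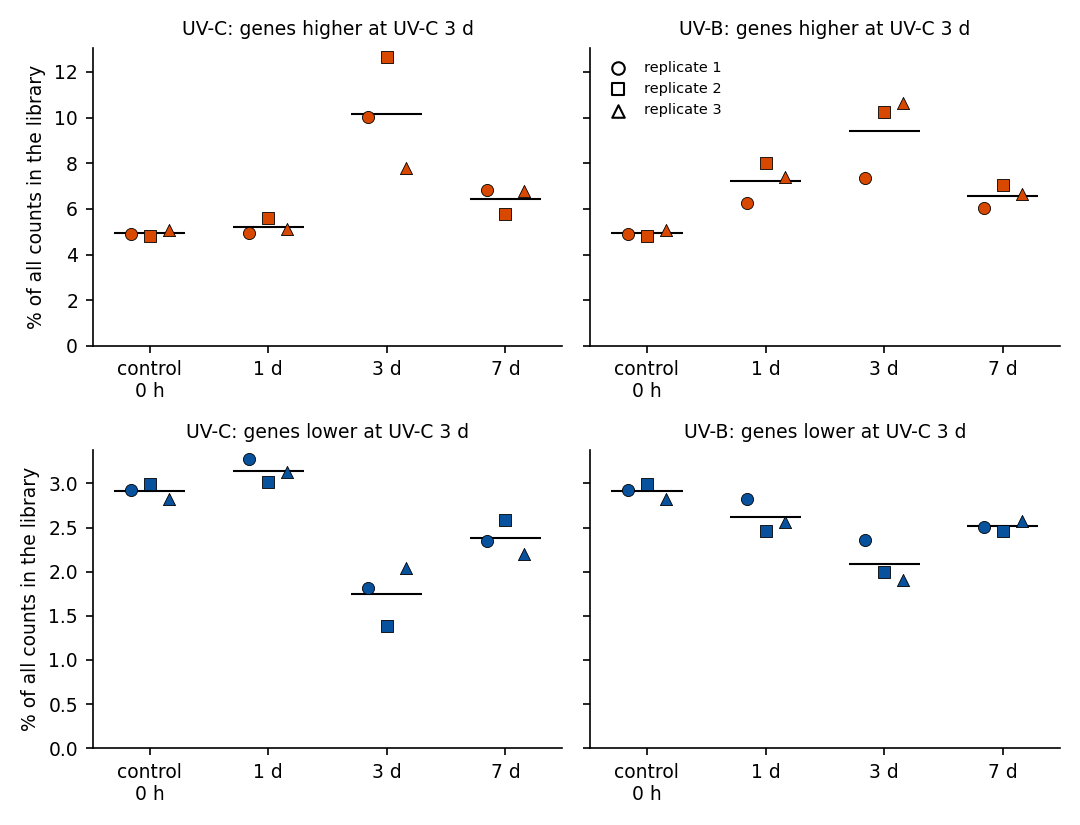
Share of all counts (percent, y axis) held by the 815 higher and the 324 lower genes in each library at 0 h, 1, 3 and 7 d, with UV-C and UV-B in separate panels, markers for replicates and a black line for the group mean. The UV-C 3 d libraries hold 7.77% to 12.7% in higher genes, above the 4.95% to 5.60% of the UV-C 1 d libraries, and replicate 3 is the lowest of the 3.

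The 251 genes that rose at least 8-fold were mostly low before. At 1 d, 167 of them averaged under 1 CPM, and in the control 186 did, which choosing genes by a high ratio favours. Their median level was 15.2 CPM at 3 d and 0.469 CPM at 1 d, beside 0.268 CPM in the control and 3.05 CPM at 7 d of UV-C. Within 3 d, replicates 1 and 2 pooled gave a median of 23.2 CPM and replicate 3 gave 1.04 CPM. In replicate 3, 120 of the 251 genes lay under 1 CPM, against 2 in the pooled replicates. Their share of all counts was 1.37%, 2.30% and 0.207% at 3 d, against 0.0552%, 0.0948% and 0.0480% at 1 d. Replicate 3 was the lowest 3 d library by far, yet above each 1 d library. In UV-B the median level of these genes was 4.52 CPM at 1 d and 11.9 CPM at 3 d. Of the 251, edgeR called 215 above the control at 3 d of UV-B, where 17.5% of all genes tested were called higher, and 148 at 1 d, where 20.6% were. Genes with few counts in the control pass the filter on low counts through an irradiated group, which favours calls above the control. The shares of all genes tested are therefore not a like background for the 251, and these counts are a description.

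Without UV-C 3 d replicate 3, 2534 genes were called, against 1139 with it. In that fit to 20 libraries, edgeR called 1503 genes higher (7.94% of 18932 tested) and 1031 lower (5.45%), with medians of 1.85 and -0.93. The share of calls that were higher was 59.3%. Of the 815 higher genes, 745 were called again, with a median of 1.54, and of the 324 lower genes 296 were, with a median of -1.11. Another 98 genes were called only with replicate 3 included.

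The left-out library gives a reading of those genes that did not enter their choice, although the 1 d libraries did. In replicate 3, 765 of the 1503 higher genes lay above all 1 d libraries, which is 50.9%, against 26.6% of all genes tested. Of the 1031 lower genes, 612 lay below all 1 d libraries, which is 59.4%, against 25.2% of all genes tested. The median level of the 1503 genes over the 1 d mean, as log2(CPM + 0.25), was 1.52 in replicate 1, 2.08 in replicate 2 and 0.28 in replicate 3. For the 1031 genes it was -0.69, -1.11 and -0.27. Replicate 3 was the nearest of the 3 to the 1 d mean in both lists. Because the 1 d libraries helped to choose the genes, these medians and shares are not a test of a change in replicate 3. With replicate 1 left out in its place, 379 of 382 higher genes and 123 of 143 lower genes lay beyond all 1 d libraries in replicate 1, against 29.2% and 28.7% of all genes tested. With replicate 2 left out, 82 of 82 and 18 of 19 did so in replicate 2, against 33.6% and 33.9%. These lists are much shorter than those without replicate 3 and were chosen with replicate 3 in the fit. In the list of 82 genes the median in replicate 3 was 1.27, against 0.28 in the list of 1503. The shares of the 3 libraries are therefore not like for like.

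The called genes were also set beside the control, as a description, since their 3 d and 1 d levels had chosen them. At 3 d, 795 of the 815 higher genes averaged above the control and 20 below. At 1 d, 415 averaged above it and 387 below. The distance from the control was larger at 3 d than at 1 d for 733 of the 815 (89.9%) and, without replicate 3, for 743. Over all genes tested it was larger for 62.0%, and for 67.8% without replicate 3. Of the 324 lower genes, 286 averaged below the control at 3 d and 121 at 1 d. Farther from it at 3 d were 213 (65.7%), which is near the share over all genes tested. The other 111 came nearer to it. Above the control stood 37 of the lower genes at 3 d and 203 at 1 d.

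By 7 d of UV-C most of these genes had intermediate levels. The mean at 7 d lay between those of 1 d and 3 d for 693 of the 815 higher genes, beyond 3 d for 80 and back past 1 d for 42. For the 324 lower genes the counts were 216, 46 and 62. The 1 d and 3 d means had chosen the genes, so these counts have no test. At 7 d, 245 of the higher genes were called above the control, where 6.36% of all genes tested were, and 49 of the lower genes were called below it, where 6.14% were.

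Genes were also grouped by their calls under UV-B against the control, a contrast that shares no library with the UV-C step. Both contrasts came from 1 fit, with the same filter, scaling and estimate of spread. A gene with a low estimated spread is more easily called in both, so the shares called are not independent. The same limit holds for the other overlaps of calls given here. Between UV-B and the control, edgeR called 2323 genes higher at both 1 d and 3 d and 1993 lower at both. Lower calls made up 17.3% of genes tested at 1 d of UV-B and 15.1% at 3 d. Of the 2323, 373 (16.1%) were higher in the UV-C step and 30 (1.29%) were lower, with a median log2 fold change of 0.51. Of the 1993, 18 (0.903%) were higher and 103 (5.17%) were lower, with a median of -0.19. Of the 9718 genes called under UV-B at neither time, 160 (1.65%) were higher and 97 (0.998%) lower, with a median of -0.04. Without replicate 3 the medians of the UV-B groups were 0.63 and -0.33, and 751 of the 2323 (32.3%) were called higher and 359 of the 1993 (18.01%) lower. Over all genes tested in both fits, 8.03% were called higher and 5.61% lower without replicate 3.

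The UV-B genes were then divided by the time at which they were called. Of 882 genes called higher at 3 d of UV-B but not at 1 d, 200 (22.7%) were higher in the UV-C step and 1 was lower, with a median of 0.46. Of 1435 genes called higher at 1 d of UV-B but not at 3 d, 28 (1.95%) were higher and 34 (2.37%) were lower, with a median of 0.01. Among genes called lower only at 3 d of UV-B, 50 of 757 (6.61%) were lower in the UV-C step, where 1.77% of all genes tested were. Among those called lower only at 1 d, 9 of 1167 (0.771%) were. Without replicate 3, 264 of the 882 (29.9%) were higher and 2 were lower. Of the 1435, 92 (6.41%) were then higher and 49 (3.41%) lower, with a median of 0.09. Lower calls were made for 137 of the 757 (18.1%) and 63 of the 1167 (5.40%). Over all genes tested in both fits the shares were 8.03% higher and 5.61% lower, so genes lower only at 1 d were then near the latter. The differences between these shares were not tested, and a gene called at 1 time and not at the other is not shown to differ between the times.

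**Figure D4:**
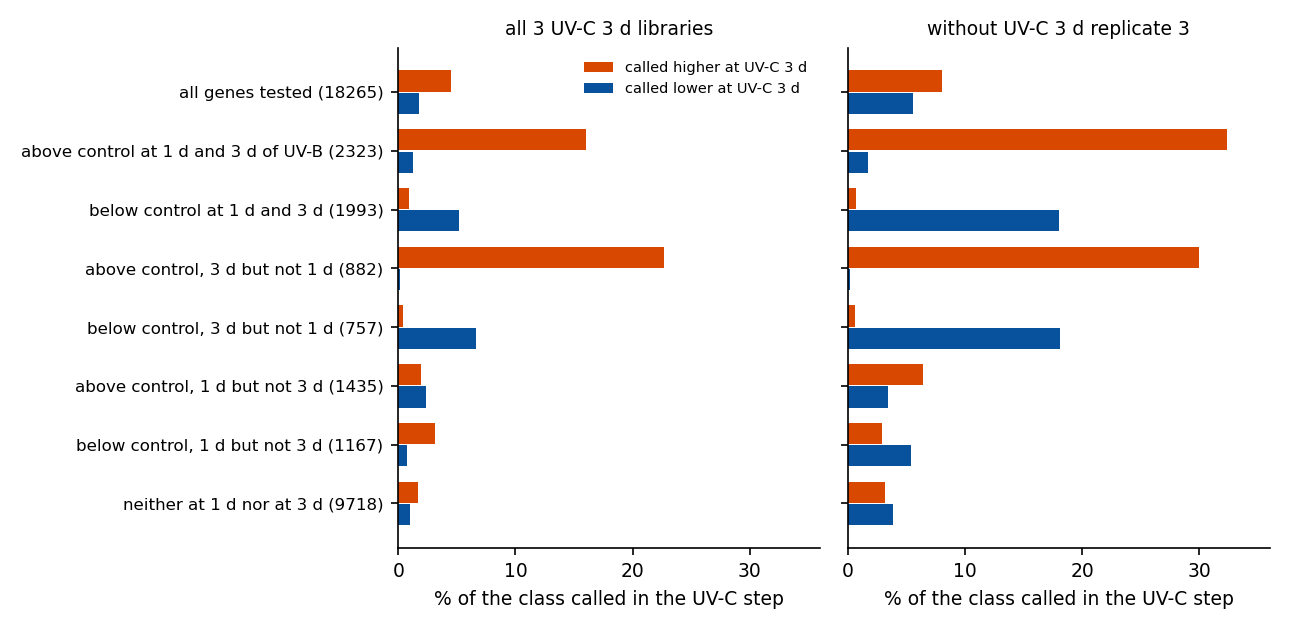
Bars give the percent of each class of genes called higher or lower at 3 d than at 1 d of UV-C, for all genes tested and for classes defined by UV-B against the control, with all libraries on the left and without UV-C 3 d replicate 3 on the right. The class higher only at 3 d of UV-B reaches 22.7% called higher on the left and 29.9% on the right, above all genes tested at 4.46% and 8.03%, the last taken over genes tested in both fits.

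Summed levels of the UV-B groups were compared over libraries. The 2323 genes higher at both times of UV-B held 15.7%, 20.9% and 11.0% of counts at 3 d of UV-C, against 10.2%, 11.7% and 9.12% at 1 d. The means were 15.9% ± 4.9 and 10.4% ± 1.3 (SD, n = 3 each), and the groups overlapped in replicate 3. The exact two-sided permutation test gave p = 0.2 (higher in 2 of 3 libraries than every 1 d library). The 1993 genes lower at both times held 22.3%, 17.5% and 25.0% at 3 d, against 27.2%, 24.9% and 27.9% at 1 d, with overlap again in replicate 3 (exact permutation p = 0.2). Without replicate 3 the 3 d means were 18.3% and 19.9%. Of 9 such measures, none can go below an exact permutation p of 0.1 with 3 libraries against 3, and every adjusted exact permutation p was at least 0.3. The 1162 genes called above the control at 7 d of UV-C held 11.2% at 3 d and 8.44% at 1 d, with no overlap of the libraries and the smallest exact permutation p, 0.1. The 426 genes higher in the UV-B step held 4.90% at 3 d and 3.86% at 1 d, again with no overlap (exact permutation p = 0.1). Total counts gave an exact permutation p of 0.5 and detected gene models 0.7.

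The matching step was measured under UV-B. Between 1 d and 3 d of UV-B, edgeR called 426 genes higher (2.33%, median log2 fold change 0.87) and 411 lower (2.25%, median -1.10). Both steps called 102 genes higher, which is 12.5% of the UV-C list and 23.9% of the UV-B list, and 49 genes lower, which is 15.1% and 11.9%. Opposite calls were made for 2 of the UV-C higher genes and 4 of the UV-C lower genes. The fold change of the UV-B step had the same sign for 644 of the 815 higher genes (79.0%) and 252 of the 324 lower genes (77.8%), against 56.6% of all genes tested. Across all genes the fold changes of the steps correlated at r = 0.29 (Spearman's rho 0.21), and at r = 0.22 without replicate 3, as a description. The number of UV-B calls fell to 225 without UV-B 1 d replicate 2, 457 without UV-B 1 d replicate 3, 247 without UV-B 3 d replicate 2 and 402 without UV-B 3 d replicate 3.

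The difference between the steps was tested as an interaction of band and time. UV-B lamps gave 280 µW/cm2 and UV-C lamps 28 µW/cm2, so band and intensity cannot be told apart. It was called for 13 genes (0.0712%), with a higher log2 fold change under UV-C in 10 and a higher one under UV-B in 3, and 3016 genes had an unadjusted p under 0.05. Without UV-C 3 d replicate 3 it was called for 1080 genes (5.7%), 671 positive and 409 negative, and these held all 13. Without UV-B 1 d replicate 1 it was called for 399 genes. Leaving out UV-C 3 d replicate 1 or 2 gave 7 and 6 genes. Leaving out UV-C 1 d replicate 1 gave 2 genes. Leaving out UV-C 1 d replicate 3, UV-B 1 d replicate 2, UV-B 3 d replicate 1 or UV-B 3 d replicate 2 gave 1 gene each. With all libraries in, other fits called more: 618 genes with DESeq2, 387 with limma voom, 376 with no filter on low counts and 56 with DESeq2 size factors in edgeR.

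Single gene models are followed where both fits called them in 1 direction and the groups did not overlap. Of 461 higher and 254 lower genes that met this and averaged 2 log2 CPM or more, those with the largest fold change and the largest difference in CPM are described. PITA_000067926-RA had the largest rise. It had 50.6, 63.9 and 1.95 CPM at 3 d, against 0, 0 and 0 CPM at 1 d. Replicate 3 was far below its mates and still above every 1 d library. The level at 3 d was at least 295-fold higher than 3 counts over the 1 d group would give (adjusted p = 0.0151, and 0.00222 without replicate 3). The call was lost without UV-C 1 d replicate 1 (adjusted p = 0.0770) and without UV-C 3 d replicate 2 (0.0616). With limma voom on all libraries the call was lost as well (adjusted p = 0.251). In the 6 libraries alone the call was lost with edgeR (adjusted p = 0.223) and limma voom (0.212) and kept with DESeq2 (0.000228). Its means were 0.222 CPM in the control, 11.1 CPM at 7 d of UV-C, and 1.71, 58.5 and 23.9 CPM at 1, 3 and 7 d of UV-B. It also rose in the UV-B step, by a log2 fold change of 5.07 (SE 1.30, adjusted p = 0.0381).

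PITA_000040227-RA gained the most in CPM. It had 4312, 7658 and 2002 CPM at 3 d, against 818, 1414 and 563 CPM at 1 d. Each group spread widely, with replicate 3 lowest in both, and the groups did not overlap. Its log2 fold change was 2.32 (SE 0.52, adjusted p = 0.0178), and 2.66 without replicate 3 (adjusted p = 0.00313). The call was lost without UV-C 1 d replicate 1 (adjusted p = 0.0982) or 3 (0.0688) and without UV-C 3 d replicate 2 (0.106). In the 6 libraries alone the call was lost with edgeR (adjusted p = 0.207) and limma voom (0.0548) and kept with DESeq2 (0.000729). It averaged 350 CPM in the control and 664 CPM at 7 d of UV-C. Under UV-B it averaged 2757, 3715 and 634 CPM at 1, 3 and 7 d, so its UV-B level was already high at 1 d. Its UV-B step had a log2 fold change of 0.43 (adjusted p = 0.687), and the difference of the steps was not called (adjusted p = 0.195).

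PITA_000073287-RA had the largest fall. It had 0.974, 0.401 and 1.43 CPM at 3 d, against 7.82, 9.30 and 6.85 CPM at 1 d. All 3 d libraries were low, from 3 to 11 counts, and replicate 3 was the highest of them. Its log2 fold change was -3.07 (SE 0.76, adjusted p = 0.0285), and -3.57 without replicate 3 (adjusted p = 0.0207). Leaving out any of the other 5 UV-C libraries lost the call: UV-C 3 d replicate 1 (adjusted p = 0.0778) or 2 (0.145), and UV-C 1 d replicate 1 (0.0884), 2 (0.0550) or 3 (0.0505). In the 6 libraries alone the call was lost with edgeR (adjusted p = 0.175) and kept with DESeq2 (6.76e-06) and limma voom (0.0451). It averaged 9.70 CPM in the control and 4.96 CPM at 7 d of UV-C. Under UV-B it averaged 4.12, 6.52 and 12.1 CPM at 1, 3 and 7 d, and its UV-B step had a log2 fold change of 0.66 (adjusted p = 0.633).

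PITA_000032185-RA lost the most in CPM. It had 91.9, 167 and 400 CPM at 3 d, against 903, 1235 and 586 CPM at 1 d. The groups came closest in replicate 3 of each and did not overlap. Its log2 fold change was -2.05 (SE 0.45, adjusted p = 0.0159), and -2.83 without replicate 3 (adjusted p = 0.000879). The call was lost without UV-C 3 d replicate 2 (adjusted p = 0.0965) and without UV-C 1 d replicate 1 (0.0668). In the 6 libraries alone the call was lost with edgeR (adjusted p = 0.233) and limma voom (0.0535) and kept with DESeq2 (0.00438). It averaged 244 CPM in the control, so the 1 d level was the raised one, and 186 CPM at 7 d of UV-C. Under UV-B it averaged 958, 336 and 162 CPM at 1, 3 and 7 d, and its UV-B step had a log2 fold change of -1.51 (adjusted p = 0.0563).

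**Figure D5:**
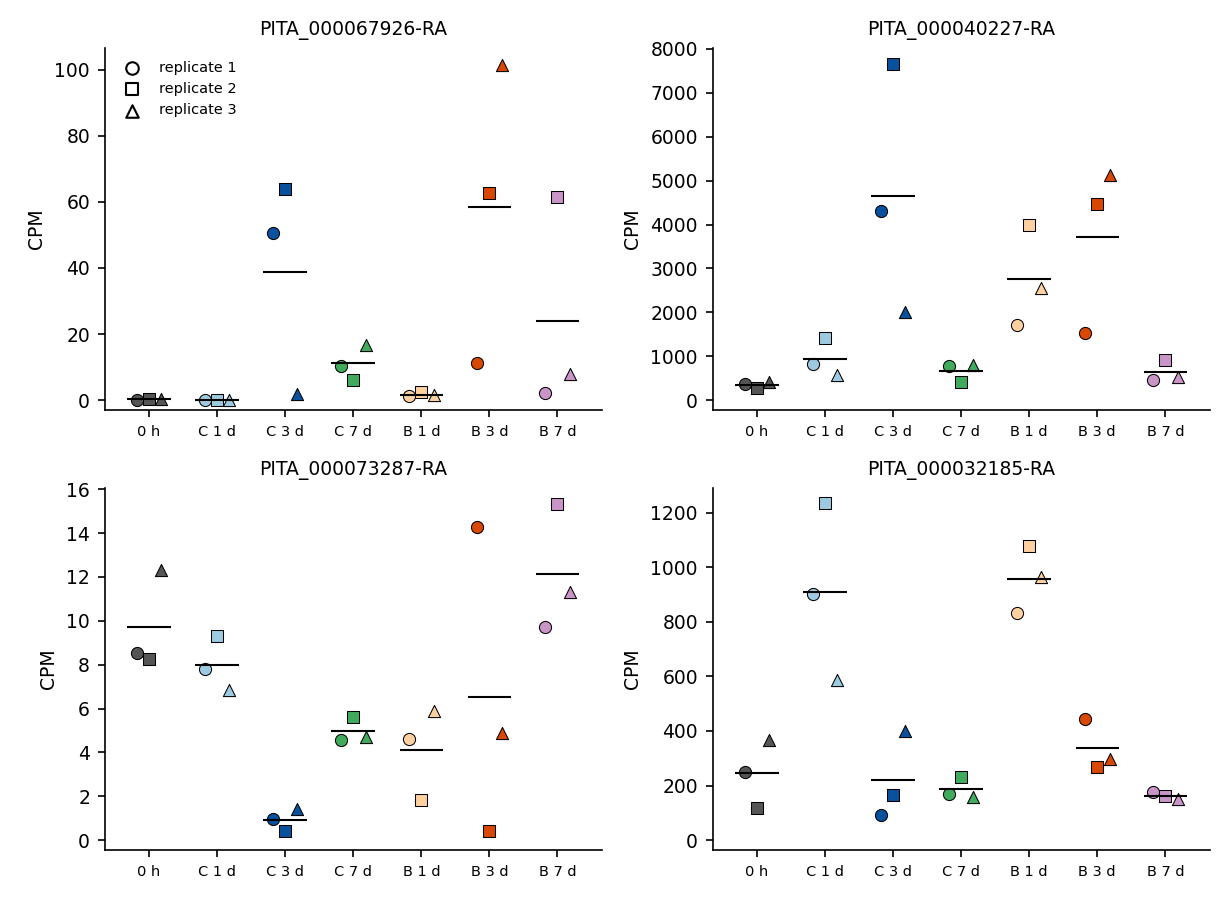
CPM of the 4 followed gene models in every library (y axis), by group (x axis), with markers for replicates and a black line for the group mean. In each gene the UV-C 3 d libraries lie apart from the UV-C 1 d libraries, and replicate 3 is the 3 d library nearest to them.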

How the data were processed

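Poly(A) RNA of foliage was sequenced as 150 bp read pairs on a HiSeq 2500. Per the labels' protocols, Trimmomatic 0.36 trimmed the reads. The submitters' processing notes name featureCounts 1.5.3. The sources used here name no aligner, reference, annotation, strand setting or rule for multi-mapping reads. What the authors deposited are raw counts per gene model. All columns could be mapped to samples (0 unmapped). Near-identical gene copies may share reads, so single gene models are uncertain.

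Groups came from the labels. The test was edgeR 4.0.16 (quasi-likelihood F-test, R 4.3.3) on the counts of all 21 libraries, with 1 mean per group, TMM scaling, filterByExpr and Benjamini-Hochberg adjustment at 0.05. SE is the absolute log2 fold change over the root of F. CPM use TMM-scaled library sizes, and log2 CPM a prior count of 2. Alternatives used DESeq2 1.42.0, limma 3.58.1, other scalings and filters, the compared groups alone, a replicate block and each library left out. The fit was tested on simulated data, in which false calls made up a larger share of the calls in this contrast than the threshold allows. With 6177212 to 7994941 counts in the 6 libraries, 1 CPM is fewer than 10 counts.

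The contrast, groupings and lists were chosen with earlier results of these data known. Followed genes were, among genes of at least 2 log2 CPM called alike with and without UV-C 3 d replicate 3 and with no overlap, those of largest fold change and largest CPM difference in each direction. Lists of pathway genes and cell type markers could not be matched to identifiers, so none has a result.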

Additional observations from a re-analysis of the deposited data

Results flagged for a closer look

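The step from 1 d to 3 d differed between UV-C and UV-B, by the test of the difference itself, for 13 gene models. The log2 difference, UV-C step minus UV-B step, ran from -2.90 to -0.89 in 3 of them and from 0.82 to 6.73 in the other 10. The gene at 6.73 averaged 1.41 CPM at 3 d and 0.0427 CPM at 1 d of UV-C. Under UV-B it averaged 0.842 CPM at 3 d and 3.91 CPM at 1 d, so its value rests on few counts. Of the 13, edgeR called 5 higher and 1 lower in the UV-C step. The gene with the largest negative difference averaged 2.30 CPM at 3 d and 6.70 CPM at 1 d of UV-C, and 12.2 CPM at 3 d and 4.85 CPM at 1 d of UV-B. The gene with the smallest adjusted p (0.00149) had a difference of 1.85. It averaged 46.2 CPM at 3 d and 36.3 CPM at 1 d of UV-C, and 115 CPM at 3 d and 328 CPM at 1 d of UV-B. The UV-C means thus lay closer together than the UV-B means. The cause of these differences was not tested.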

How the results depend on the processing

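The number of calls depended strongly on the fit, and in the UV-C step higher genes outnumbered lower genes in each of 17 alternatives. Against 1139 calls for the UV-C step (815 higher, 324 lower), the DESeq2 Wald test gave 2007 (1360 and 647), limma voom with library weights 2603 (1389 and 1214), and a minimum log2 fold change of 1 gave 635 (497 and 138). The groups compared alone gave 1 (1 and 0), or, in alternatives chosen after seeing the data, 650 (467 and 183) with DESeq2 and 88 (60 and 28) with voom. Leaving out 1 library gave 42 to 2534 calls (24 to 1503 higher, 18 to 1031 lower). The voom split was 53.4% higher. Without UV-C 3 d replicate 3 (2534), the groups alone gave 732, voom on them 855 and a minimum fold change 1536. Leaving out a further library gave 316 to 2736, where a lone library is assumed to vary like other groups. For the UV-B step (837), the values were 1545 with DESeq2, 166 with the groups alone, 226 with voom on them, 411 with a minimum fold change and 225 to 1007 with 1 library left out. For the difference of the steps (13), they were 56 with DESeq2 size factors, 376 without a filter, 618 with DESeq2, 387 with voom, 0 with edgeR on the groups alone (2061 at an unadjusted p under 0.05), 240 and 2 with DESeq2 and voom on them, and 1 to 1080 with 1 library left out. The cause was not tested.

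Over 17 alternatives, the 815 higher genes, where tested, had medians between 1.13 and 1.54, and the 324 lower genes between -1.11 and -0.79. Both lists were held fixed and had been chosen on the same libraries. These ranges therefore do not describe the genes that each alternative called. No value reversed. The 4 followed genes missed the threshold in 4 to 6 of 17 alternatives each, with adjusted p up to 0.251. The replicate block gave 1023 calls (715 and 308). Same-numbered libraries deviated together with r of -0.00, 0.18 and 0.19, and not every library correlated best with its own number. Deviations from a mean of 3 libraries depend on each other. These values therefore cannot decide whether same-numbered samples were paired. Genes near 1 CPM rest on few counts.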

Other observations

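Genes were also grouped by their level in unirradiated foliage. Of 2193 genes under 1 CPM in the control, 173 (7.89%) were higher and 16 (0.730%) lower at 3 d than at 1 d of UV-C. Of 6602 genes between 1 and 10 CPM, 173 (2.62%) were higher and 74 (1.12%) lower. Of 7049 genes between 10 and 100 CPM, 308 (4.37%) were higher and 163 (2.31%) lower. Of 2126 genes at 100 CPM and over, 116 (5.46%) were higher and 70 (3.29%) lower. Without UV-C 3 d replicate 3 more genes were lower than higher in both upper classes, with 485 higher and 513 lower between 10 and 100 CPM and 161 higher and 252 lower from 100 CPM. Below 10 CPM more were higher. A gene with few counts in the control passes the filter on low counts through an irradiated group, so the first class holds genes that had to be high somewhere.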
